A study of Mus musculus with 2 samples.

Results

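The genes of the T cell coreceptors and of the factor that sorts their lineages, Cd8a, Cd8b1, Cd4 and Zbtb7b, were examined in open chromatin profiles of mouse CD8+ T cells. Members were the 4 listed genes, and a peak belonged to them when its summit had one of their start sites as the nearest protein-coding start site within 100 kb, or when the peak lay within 1 kb of such a start site. By this rule 51 of 179414 intervals in the TAMo library and 36 of 127423 intervals in the vehicle library were members, which joined into 53 of 190617 regions. The assay was ATAC-seq, in which a transposase cuts and tags accessible DNA. One culture of OT-I T cells (genotype WT) contained TAMos, which the series' design text defines as CD11b+Ly6G-Ly6Chigh cells from spleens of mice with LLC (Lewis lung carcinoma) tumours, and the other culture received vehicle. Both were stimulated for 48 h with OVA257-264, the ovalbumin peptide that the OT-I receptor transgene binds, and about 50000 CD8+ cells were then sorted from each. Neither the number of mice behind a culture nor any pooling is stated. There was 1 library per culture, so no difference below has a replicate check, no test between the cultures was possible, and every interval covers counting error only.

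CD8 and CD4 are surface proteins that bind MHC class I and class II beside the T cell receptor and bring the kinase Lck to it. CD8 on these cells is a dimer of an alpha and a beta chain, encoded side by side by Cd8a and Cd8b1, and its expression is controlled by several stage-specific enhancers spread over the locus. Cd4 becomes silenced in the CD8 lineage through an intronic silencer bound by RUNX factors. Zbtb7b, which encodes the zinc finger factor ThPOK, directs cells to the CD4 lineage and is itself kept low in CD8 cells. The deposited lists do not name these elements, and no peak is equated with one here.

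Coverage at a peak's summit, in reads, was recovered from the deposited fold and p-value of each peak. Ratios were taken after dividing by each library's background of 5.80 reads (TAMo) and 4.71 reads (vehicle). Of the 53 regions, 30 had a peak in both libraries (56.6%, against 54.5% of all regions), 18 in the TAMo library only (37.2% of all regions were of this kind) and 5 in the vehicle library only (8.34% of all regions). A region with a peak in one library only has a missing call in the other, which need not be a closed site, because calls were made against the local background. Intervals covered 16500 bp in TAMo and 13539 bp in vehicle. Summits of the 2 libraries lay within 34 bp of each other in every shared member region, with a median gap of 8 bp.

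Cd8b1 (ENSMUSG00000053044.8, chromosome 6, 71322788 to 71337494, mm10) encodes the beta chain. Its promoter region (71321927 to 71323049) had 1256 reads in the TAMo library and 745 reads in the vehicle library. That is a log2 ratio of TAMo over vehicle of 0.45 (95% exact binomial interval 0.32 to 0.59), or 1.37-fold. The summit lay 252 bp upstream of the start site and also within 1 kb of the start of Smyd1, a muscle histone methyltransferase gene on the opposite strand whose gene model lies 554 bp away, so the value belongs to both promoters. Within the gene body the libraries were closer. A peak in the first intron, 1337 bp into the gene, had 338 reads in TAMo and 335 reads in vehicle, which gave −0.29 (−0.51 to −0.07) after scaling. In the third intron, 3 regions lay 7898, 8302 and 9552 bp from the start. They held 105, 172 and 198 reads in TAMo and 90, 119 and 155 reads in vehicle, with log2 ratios of −0.08, 0.23 and 0.05 whose intervals all included 0.

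The stretch of 35932 bp between the end of Cd8b1 and the start of Cd8a held 17 regions, and its shared regions were lower in the TAMo library. All 10 regions shared there had a log2 ratio below 0, with a median of −0.59 and a range of −1.52 to −0.25, and for 9 of them the counting interval lay below 0. Among all shared distal regions, those over 1 kb from a start site, 30.3% had a ratio below 0 and 13.0% an interval below 0. The strongest member region outside a promoter lay here, 18774 bp from the Cd8b1 start (71341124 to 71341793). It had 758 reads in TAMo and 829 reads in vehicle (−0.43, −0.57 to −0.29), and its vehicle coverage exceeded that of 99.3% of shared distal regions.

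Upstream of Cd8a the differences were larger at some peaks than at their neighbours. At 21995 bp upstream (71351252 to 71351598) the libraries had 138 reads in TAMo and 288 reads in vehicle, a log2 ratio of −1.36 (−1.67 to −1.06). The adjoining peaks at 21419 bp and 21082 bp had 286 and 412 reads in TAMo and 292 and 417 reads in vehicle, with ratios of −0.33 and −0.32. The intervals of these ratios did not meet that of the first peak, which lay within 1 kb of both. At 20243 bp there were 136 reads in TAMo and 176 reads in vehicle (−0.67), at 15701 bp 361 reads in TAMo and 419 reads in vehicle (−0.52), and at 14406 bp 177 reads in TAMo and 171 reads in vehicle (−0.25, −0.56 to 0.06). The last of these was the only shared region of the stretch whose interval included 0.

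Nearer to Cd8a, the peak at 12011 bp upstream (71361279 to 71361710) had 139 reads in TAMo and 290 reads in vehicle (−1.36, −1.66 to −1.06). The peak at 9517 bp (71363795 to 71364028) had 59 reads in TAMo and 137 reads in vehicle, the lowest ratio of any member region at −1.52 (−1.98 to −1.07), or 2.86-fold lower. Its neighbour at 9228 bp had 132 reads in TAMo and 201 reads in vehicle (−0.91, −1.23 to −0.58). Ratios at least as low as those at 21995, 12011 and 9517 bp were rare: 1.66%, 1.66% and 1.18% of shared distal regions were lower still. Peaks were also called in one library only in this stretch. A vehicle peak of 193 reads lay 3885 bp upstream of Cd8a (71369322 to 71369789) with no TAMo peak, and 97.1% of all regions called only in vehicle had fewer reads. Another vehicle-only peak lay at 9886 bp (81 reads). The TAMo-only peaks held 118 reads at 19431 bp and 106 reads at 1174 bp upstream of Cd8a, and 125, 107 and 139 reads at 16570, 16850 and 22946 bp from the Cd8b1 start.

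The local background that the peak caller used differed in the same direction over this stretch. At the 10 shared regions it was 18.4 to 57.2 reads in TAMo and 30.2 to 73.1 reads in vehicle, a scaled log2 ratio of −1.01 to −0.38, whereas over all shared regions the quartiles of that ratio were −0.14 and 0.37. By the authors' deposited fold, which divides by this local background, 5 of the 10 regions were lower in TAMo and the median was 0.03. None of the 10 was at least 2-fold lower on that scale. The peaks at 21995 bp (fold 3.03 in TAMo, 5.52 in vehicle), 12011 bp (3.68 in TAMo, 4.87 in vehicle) and 9517 bp (2.72 in TAMo, 4.09 in vehicle) were lower there by less than 2-fold. The part of the local background in the coverage ratios was not tested.

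Cd8a (ENSMUSG00000053977.13, chromosome 6, 71373427 to 71379173) encodes the alpha chain, which carries the Lck binding site. Its promoter peak (71373249 to 71373714) had 654 reads in TAMo and 551 reads in vehicle, with the summit 11 bp inside the gene at the same base in both. The scaled log2 ratio was −0.05 (−0.22 to 0.11), so no difference was detectable at this depth. A further TAMo-only peak of 274 reads lay 786 bp upstream of the start (71372494 to 71372790), higher than 98.6% of regions called only in TAMo, and another of 126 reads lay in the third intron. The promoter sequence is shown because this peak covers most of it, from 250 bases before to 10 bases after the start (RefSeq, GRCm38.p6, plus strand, chr6:71373177-71373436); peaks covered 188 of its bases in TAMo and 185 in vehicle. Capitals mark the single match to 6 searched motifs, an E-box (CAGCTG) 2 bases before the start.
Cd8a promoter: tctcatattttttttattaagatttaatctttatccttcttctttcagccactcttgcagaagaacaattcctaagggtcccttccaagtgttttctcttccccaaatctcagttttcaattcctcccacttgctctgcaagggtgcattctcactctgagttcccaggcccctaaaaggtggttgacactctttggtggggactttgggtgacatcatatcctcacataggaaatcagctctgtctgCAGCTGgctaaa
The motifs, searched on both strands over RefSeq windows of 300 bases, were the RUNX motif TGTGGT, the GATA motif AGATAA, the ETS motif CAGGAAGT, the E-box CAGCTG, the AP-1 motif TGANTCA and the TCF/LEF motif CTTTGA. None of them overlapped another match in the windows shown. CAGCTG occurred in 16.3% of 31396 such windows on chromosomes 1 to 19. A match is a description of letters only.

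Beyond the end of Cd8a, 3 of 5 shared regions had a ratio above 0, 2 of them with an interval above 0. A peak 8395 bp from the first start site (71381657 to 71382125) had 367 reads in TAMo and 219 reads in vehicle, a log2 ratio of 0.44 (0.20 to 0.69). One at 13964 bp (71387039 to 71387938) had 488 reads in TAMo and 327 reads in vehicle (0.28, 0.07 to 0.48). Another peak at 7836 bp had 107 reads in TAMo and 98 reads in vehicle (−0.17, −0.58 to 0.24). Both higher ratios were ordinary for distal regions, whose median was 0.37. Farther on, 2 shared and 4 one-library peaks lay 21006 to 25921 bp away in introns of the ubiquitin ligase gene Rmnd5a, all with 23 to 50 reads. The shared peaks there had ratios of 0.11 (−0.65 to 0.89) and −0.05 (−0.77 to 0.69). When the median of all shared regions was set to 0, 4 of the 5 shared regions were below 0, and the one at 8395 bp stayed above it.

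**Figure D1:**
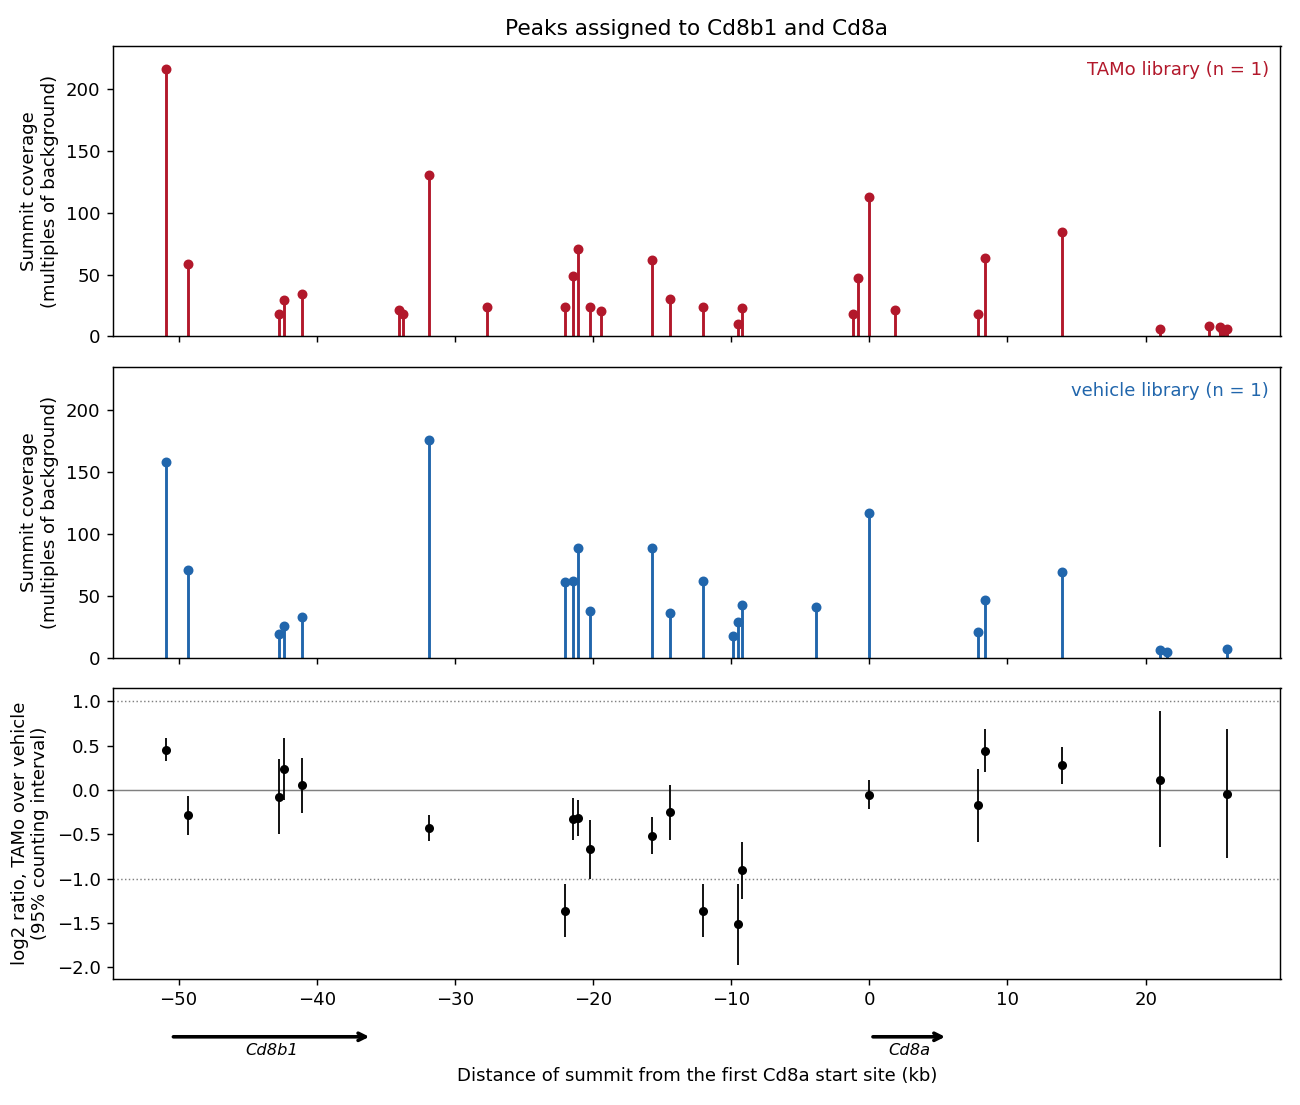
Peaks assigned to Cd8b1 and Cd8a by distance from the first Cd8a start site (kb). The upper panels give summit coverage as multiples of library background in the TAMo and the vehicle library, and the lowest panel gives the log2 ratio of TAMo over vehicle with 95% counting intervals and dotted lines at 2-fold. Arrows below mark both genes. All 10 shared regions between the genes lie below 0, with 3 past the 2-fold line.

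Cd4 (ENSMUSG00000023274.14, chromosome 6, 124864692 to 124888221, minus strand) had no peak within 1 kb of its start site in either library, as did 31.1% of genes. The remaining peaks of the locus were few, with 8 intervals in TAMo and 4 in vehicle. All 3 shared member regions had a ratio above 0, whereas 30.3% of all shared distal regions had one below 0. A shared peak in exon 10 of Cd4 (124865249 to 124865457) is nearer to the start of Gpr162 and so is not a member. It went the other way, with 64 reads in TAMo and 77 reads in vehicle (−0.57, −1.07 to −0.07). At 3843 bp upstream of the start (124891912 to 124892433) there were 409 reads in TAMo and 46 reads in vehicle. The log2 ratio was 2.85 (2.41 to 3.32), or 7.22-fold, the highest of any member region and above 98.3% of shared distal regions, of which 6.98% were at least 4-fold higher. By the authors' deposited fold the log2 ratio was 1.85, under 4-fold. In the first intron, 2869 bp into the gene (124885112 to 124885512), there were 287 reads in TAMo and 110 reads in vehicle, with the summits 1 bp apart (1.08, 0.76 to 1.41; 2.12-fold). Of all shared distal regions 76.9% had a lower ratio than this one, and it was under 2-fold when the median of all shared regions was set to 0 or when the authors' deposited fold was used. In the third intron, 9793 bp into the gene, there were 52 reads in TAMo and 26 reads in vehicle (0.70, −0.01 to 1.44).

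Peaks called in one library only lay near the same sites. TAMo-only peaks held 75 reads at 3431 bp and 70 reads at 5918 bp upstream, and 34, 41 and 74 reads in the first intron at 2247, 2574 and 4560 bp. The sole vehicle-only peak held 54 reads at 7783 bp upstream. The TAMo-only peaks all held fewer reads than the shared regions at 3843 and 2869 bp did in TAMo. The vehicle-only peak held more reads than the shared region at 3843 bp did in vehicle (46 reads). It held fewer than the one at 2869 bp did there (110 reads). The local background at the 3 shared regions was 5.80 to 19.5 reads in TAMo and 4.71 to 7.5 reads in vehicle. Farther upstream, peaks are nearer to Lag3, an inhibitory receptor gene that binds MHC class II, and so are not members. Of these, the peak at 12968 bp from the Cd4 start had 634 reads in TAMo and 337 reads in vehicle (0.61, 0.42 to 0.81). The next one, at 13758 bp, went the other way with 228 reads in TAMo and 381 reads in vehicle (−1.04, −1.28 to −0.80). The Lag3 promoter itself had 522 reads in TAMo and 606 reads in vehicle (−0.52).

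Zbtb7b (ENSMUSG00000028042.15, chromosome 3, 89377644 to 89394776, minus strand) had a promoter peak of 1144 reads in TAMo and 831 reads in vehicle. It exceeded 93.2% of promoters with a peak in TAMo and 88.8% in vehicle. This peak (89393570 to 89393930) lay 397 bp upstream of the first of 4 annotated start sites and had a log2 ratio of 0.16 (0.03 to 0.29), which turned to −0.12 when the median of all shared regions was set to 0. A second region at 868 bp upstream had 459 reads in TAMo and 433 reads in vehicle (−0.22, −0.41 to −0.02), and another at 1739 bp had 149 reads in TAMo and 147 reads in vehicle (−0.28, −0.62 to 0.06). Inside the gene, the peak at 4371 bp had 123 reads in TAMo and 129 reads in vehicle (−0.37, −0.74 to −0.00), and the one at 7722 bp had 37 reads in TAMo and 44 reads in vehicle (−0.55, −1.22 to 0.11).

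The lowest Zbtb7b ratio was in the third exon, 14835 bp from the first start (89378171 to 89378956), with 271 reads in TAMo and 358 reads in vehicle (−0.70, −0.94 to −0.47). By the deposited fold this peak stood at 18.2 in TAMo and 17.0 in vehicle, because the local background was 13.9 reads in TAMo and 20.1 reads in vehicle. TAMo-only peaks held 158 and 35 reads at 1523 and 7101 bp in the first intron. They lay 230 and 928 bp from other annotated Zbtb7b start sites, within the 1 kb that defines a promoter here. A further TAMo-only peak held 215 reads at 3476 bp upstream. A vehicle-only peak of 139 reads lay at 3224 bp upstream, next to that TAMo-only one but not overlapping it.

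Both RefSeq start windows of Zbtb7b are shown, 250 bases before to 10 after the start on the minus strand (GRCm38.p6), because only one of them carried a peak. The distal window (chr3:89393369-89393628) overlapped the promoter peak by 59 bases in TAMo and 55 bases in vehicle, whereas the nearest interval to the inner window (chr3:89387662-89387921) was 1006 bp away in TAMo and 979 bp away in vehicle. Capitals mark an ETS match (CAGGAAGT, in 3.34% of all windows) 36 bases before the distal start and a RUNX match (TGTGGT, in 16.7% of windows) 89 bases before the inner start.
Zbtb7b distal start: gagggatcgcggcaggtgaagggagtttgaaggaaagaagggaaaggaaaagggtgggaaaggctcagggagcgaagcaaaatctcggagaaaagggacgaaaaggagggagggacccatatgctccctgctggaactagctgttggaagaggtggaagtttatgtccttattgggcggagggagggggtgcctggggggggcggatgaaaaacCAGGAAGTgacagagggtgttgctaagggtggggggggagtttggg
Zbtb7b inner start: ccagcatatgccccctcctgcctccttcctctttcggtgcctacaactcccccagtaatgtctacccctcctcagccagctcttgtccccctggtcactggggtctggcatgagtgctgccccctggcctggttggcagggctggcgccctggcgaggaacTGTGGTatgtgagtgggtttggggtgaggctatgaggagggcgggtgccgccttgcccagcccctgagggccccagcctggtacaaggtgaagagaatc
The other motifs listed for Cd8a had no match in these 2 windows. The sequence table held 2 of the 4 members; Cd8b1 and Cd4 are named only.

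**Figure D2:**
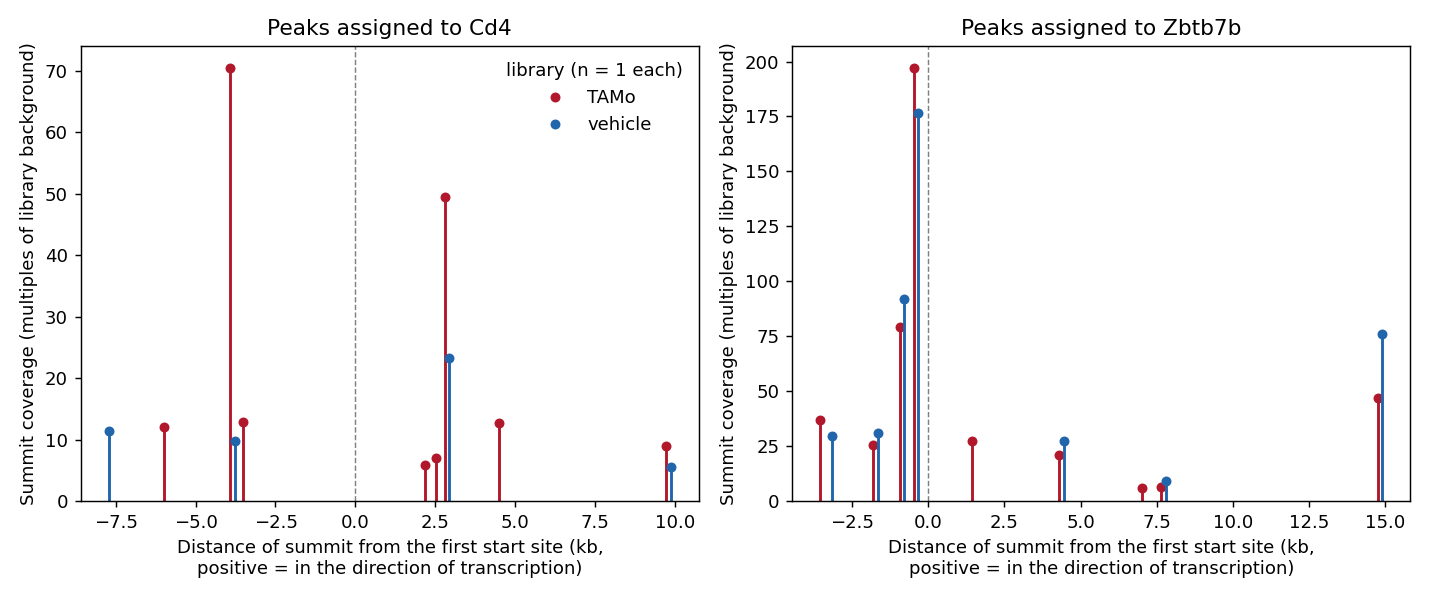
Summit coverage of peaks assigned to Cd4 (left) and Zbtb7b (right), as multiples of library background, by distance of the summit from the first start site (kb, positive in the direction of transcription); TAMo points are drawn slightly left of vehicle points. Cd4 has no peak at its start (dashed line) and its tallest peak, 409 reads in TAMo and 46 reads in vehicle, lies 3843 bp upstream; the tallest Zbtb7b peak lies 397 bp upstream in both libraries.

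Set against all shared distal regions, the members had lower ratios. Of their 26 shared distal regions, 3 were at least 2-fold lower in TAMo (3.64% of all shared distal regions were) and 2 were at least 2-fold higher (25.5% of all). The 3 lower regions were all upstream of Cd8a and both higher regions belonged to Cd4. A ratio below 0 was found in 18 of the 26, and 12 had an interval below 0 (30.3% and 13.0% of all, as above). Their median was −0.28, against 0.37 over 86212 shared distal regions (quartiles −0.11 and 1.02). By gene, the median over shared regions was −0.32 for Cd8a (15 regions), −0.01 for Cd8b1 (6 regions), 1.08 for Cd4 (3 regions) and −0.32 for Zbtb7b (6 regions). None of the 4 shared promoter regions was 2-fold different, against 4.96% of all shared promoter regions that were higher and 0.913% that were lower. The members share their libraries and, within a locus, their neighbourhood, so they are not independent observations. Promoters of the flanking genes differed by less than 2-fold where both libraries had a peak. Their log2 ratios were −0.05 at Krcc1 and Rmnd5a and −0.42 at Rnf103 around the Cd8 genes, 0.98 at Gpr162, −0.23 at P3h3 and −0.03 at Ptms around Cd4, and 0.06 at Flad1 beside Zbtb7b. Dcst2 and Lenep had no promoter peak, and Dcst1 had one of 16 reads in vehicle only.

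**Figure D3:**
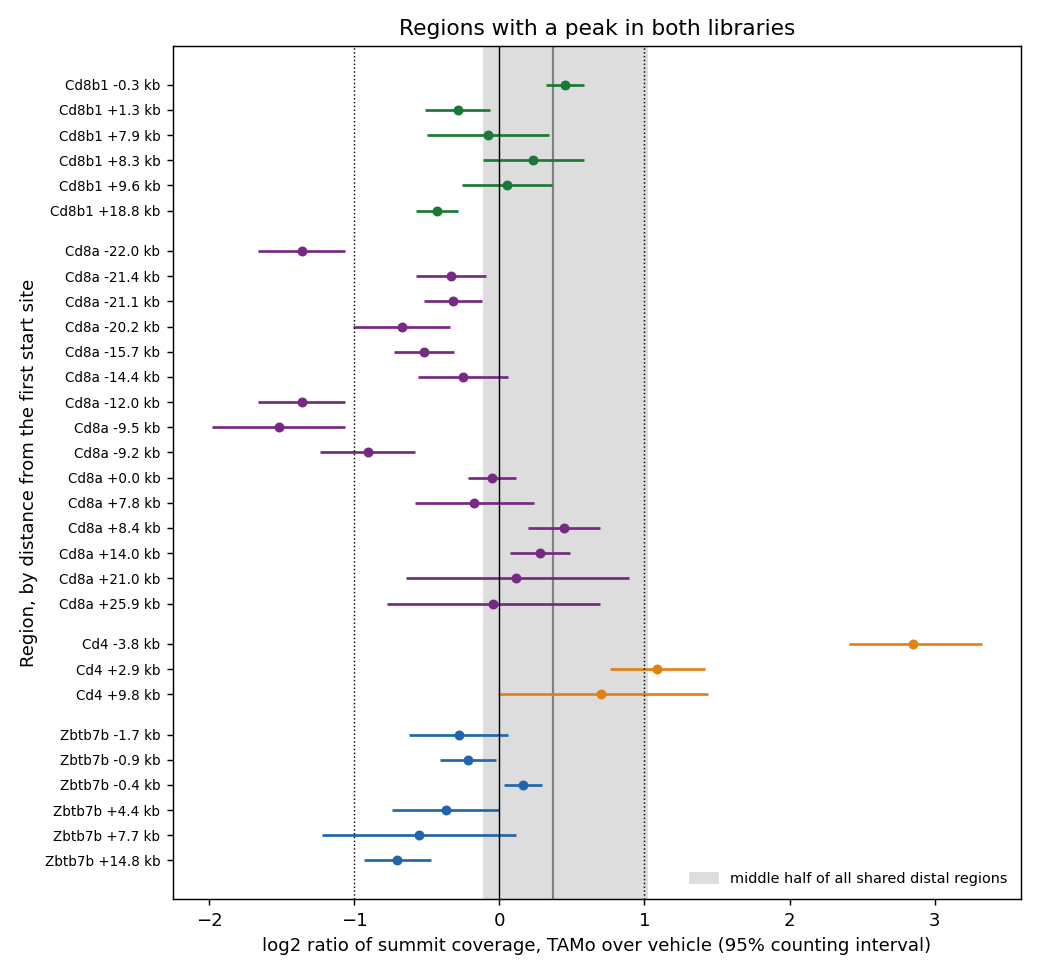
Log2 ratio of summit coverage, TAMo over vehicle, with 95% counting intervals for the 30 member regions with a peak in both libraries, ordered by gene and by distance from the first start site. The grey band runs from the lower to the upper quartile of all shared distal regions (−0.11 to 1.02), with a line at their median, and dotted lines mark 2-fold. Regions upstream of Cd8a lie left of the band and the Cd4 region 3.8 kb upstream lies at 2.85.

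The order of Cd8b1 and Zbtb7b among the promoters differed between the libraries. In TAMo it was Cd8b1 (1256 reads, 95% exact Poisson interval 1187 to 1327), Zbtb7b (1144 reads, 1079 to 1212) and Cd8a (654 reads, 605 to 706), with no peak at Cd4. In vehicle it was Zbtb7b (831 reads, 775 to 889), Cd8b1 (745 reads, 692 to 800) and Cd8a (551 reads, 506 to 599). Within each library the intervals of Cd8b1 and Zbtb7b overlapped, and that of Cd8a lay below both. The intervals of the TAMo over vehicle ratios of Cd8b1 (0.32 to 0.59) and Zbtb7b (0.03 to 0.29) did not meet. Among 12915 promoters with overlapping peaks the Cd8b1 ratio exceeded 87.9% of ratios, that of Zbtb7b 68.9% and that of Cd8a 35.4%. Likeness was measured over the 2 libraries only, as the distance between pairs of log2 scaled promoter levels, among 47 regulator and signalling genes. By this measure the promoters nearest to Cd8a were those of Cd3e, a receptor chain (distance 0.12), and Smarca4, a chromatin remodelling ATPase (0.31). For Cd8b1 and Zbtb7b they were Stat5a, a cytokine signal transducer (0.26 from Cd8b1 and 0.19 from Zbtb7b), and the phosphatase gene Ptpn22 (0.32 and 0.21).

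None of the measured promoters of the wider coreceptor pathway was past 2-fold, which few promoters were. The list of regulators of the Cd4, Cd8 or Zbtb7b genes held 35 genes, mostly of transcription factors and chromatin regulators. It also held genes that encode neither, such as Il7r. All 35 had a promoter peak in both libraries and 29 had overlapping strongest peaks. None of these 29 was at least 2-fold higher (3.60% of all promoters were) or lower (0.774% of all), and their median was −0.05 against 0.03 over all promoters. Counting intervals lay above 0 for 4 of the 29 and below 0 for 10. The matching shares over all promoters were not computed, so these counts have no background and are not read as a trait of the list. The lowest were the DNA methyltransferase gene Dnmt1, with 358 reads in TAMo and 577 reads in vehicle (−0.99, −1.18 to −0.80), and the interleukin-7 receptor gene Il7r, with 301 reads in TAMo and 458 reads in vehicle (−0.91, −1.12 to −0.69). The highest were Tcf12, an E protein gene (0.34, 0.14 to 0.53), and Runx1 (0.30, 0.15 to 0.44). Runx3, the RUNX factor of CD8 cells, had 1548 reads in TAMo and 1244 reads in vehicle (0.02, −0.09 to 0.12).

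Of 20 genes of receptor-proximal signalling and MHC class I, all had peaks in both libraries, 18 had overlapping ones, and none was 2-fold different (median 0.05). Intervals lay above 0 for 5 of the 18 and below 0 for 3, again without the matching shares over all promoters. The adaptor genes Lcp2 (323 reads in TAMo and 170 reads in vehicle; 0.63, 0.35 to 0.90) and Lat (0.47, 0.31 to 0.63) were highest. The adhesion gene Cd2 (211 reads in TAMo and 253 reads in vehicle; −0.56, −0.83 to −0.29) and the kinase gene Zap70 (−0.44, −0.66 to −0.22) were lowest. At Lck, whose product binds both coreceptors, the strongest promoter peaks of the libraries did not overlap, so no ratio is given.

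**Figure D4:**
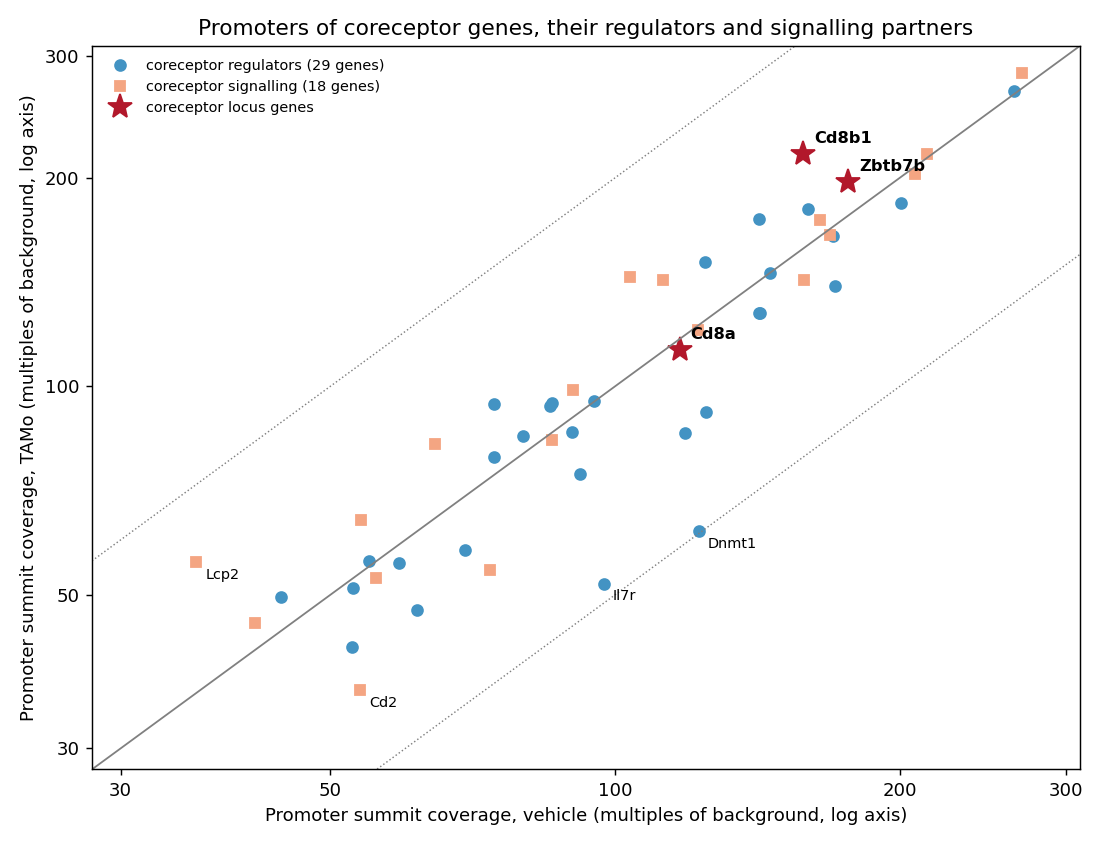
Promoter summit coverage in TAMo against vehicle, as multiples of library background on log axes, for 29 coreceptor regulators, 18 signalling genes and the 3 coreceptor locus genes with a promoter peak (stars). The solid line marks equal levels and dotted lines mark 2-fold; genes more than 0.5 from 0 on the log2 scale are named. Cd8b1 lies above the line, Cd8a on it, and Dnmt1 and Il7r near the lower 2-fold line.

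The labelled cell type was checked against marker promoters, beside a background of 31.1% of genes with no promoter peak in either library, and of 3.60% of promoters past 2-fold upward and 0.774% downward in TAMo. All 10 CD8 T cell markers had a promoter peak in both libraries, and none was 2-fold different. Their log2 ratios ran from −0.73 to 0.45, with a median of −0.03. Of 13 myeloid markers 7 had a promoter peak in TAMo and 5 in vehicle, with summed coverage of 1355 reads in TAMo and 816 reads in vehicle (234 and 173 multiples of background). Lyz2, Ly6c2, Ccr2, Csf3r and Mpo had none in either library. Only 4 of the 13 had a ratio, all above 0. Of these, only Cx3cr1 was past 2-fold, with 145 reads in TAMo and 26 reads in vehicle (2.18, 1.57 to 2.84). Spi1 had a ratio of 0.89 (0.19 to 1.63), Cebpa 0.11 and Cd68 0.07, the last 2 with intervals that included 0. Itgam (118 reads), Adgre1 (31 reads) and Fcgr3 (27 reads) had a peak in TAMo only, and Fcgr1 (18 reads) in vehicle only. The sums count a missing peak as 0. Of 8 markers of CD4 helper cells, Cd4 and Zbtb7b included, 4 had a peak in TAMo and 5 in vehicle, with summed coverage of 283 multiples of background in TAMo and 305 in vehicle; Cd4, Il4 and Il5 had none in either, and Il17a (18 reads in TAMo and 39 reads in vehicle; −1.42, −2.31 to −0.58) was past 2-fold. All 4 class II genes had peaks in both libraries, summing to 200 multiples of background in TAMo and 163 in vehicle. H2-Eb1, whose strongest peaks did not overlap and so gave no ratio, held 87.9 multiples in TAMo and 51.0 in vehicle. The ratios of H2-Ab1 (−0.09), H2-Aa (0.20) and Ciita (−0.22) all had intervals that included 0. Among B cell markers, Blk (82 reads in TAMo and 24 reads in vehicle; 1.47, 0.80 to 2.19) and Ms4a1 (65 reads in TAMo and 26 reads in vehicle; 1.02, 0.35 to 1.74) were past 2-fold. Pax5 had a peak of 30 reads in TAMo only, Cd79a had none, and the ratios of Ebf1 and Cd79b were −0.42 and −0.18. Of 2 NK cell markers, 1 had no promoter peak in either library. The other had 12.4 multiples of background in TAMo and 7.01 in vehicle (0.83, 0.21 to 1.47). In bulk material, a change in the make-up of the sorted cells cannot be told apart from a change within them, and the part of other cells in the Cd4 and Cd8 values was not tested.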

How the data were processed

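ATAC-seq libraries were made from about 50000 sorted CD8+ T cells of 1 culture with TAMos and 1 with vehicle and read as paired 150 bp reads, per the labels' protocols. Trimmomatic 0.36, Bowtie2, MACS2 and build mm10 are named in the submitters' processing notes, with settings not given in the sources used here. There was 1 deposited peak list per library, with rows that give a start and end, a summit offset, a score, a fold enrichment over local background (a ratio) and the −log10 p and −log10 q of each summit, all set by the authors' peak caller. The lists held 225656 rows for TAMo and 163215 rows for vehicle on chromosomes 1 to 19, and rows with the same interval were counted once.

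The number of reads at each summit was recovered on the assumption that the deposited fold is (coverage + 1)/(background + 1) and the deposited −log10 p a Poisson upper tail. Coverage then came out whole, within 1% of the step between whole numbers, for all but 47 TAMo rows and 29 vehicle rows, which were left out. Read extension and duplicate removal are unstated, so a read here is a unit of the caller's pileup. The most frequent background, 5.80 reads in TAMo and 4.71 reads in vehicle, stood for depth; median summit coverage was 93 reads in TAMo and 81 reads in vehicle. The recovery was tested on data simulated with the same assumed forms of fold and p-value. That test checks the calculation and cannot check the assumption. Start sites came from the GENCODE M21 basic annotation, which is on the same assembly as mm10. Intervals of both lists that overlapped by 1 bp or more were joined into regions, each represented by its highest summit in each library. A promoter was the strongest summit within 1 kb of a start site, with a ratio only where both libraries' peaks overlapped. Log2 ratios carry 95% exact binomial intervals; reads are not independent molecules. With 1 library per culture no p-value was computed, and 2-fold was the size that was counted. The named genes were the members, their neighbours, and the 2 highest and 2 lowest of each pathway list where none passed 2-fold; Runx3, Lck and marker genes were named beside these. Members and lists were chosen with earlier results of these data known. 1 gene of the marker lists is not reported here. Python 3.11.15, numpy 2.4.6, pandas 2.3.3 and scipy 1.17.1 were used.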

Additional observations from a re-analysis of the deposited data

How the results depend on the processing

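Total member peak numbers stayed within 1.5 times under a stricter −log10 q (at least 5 or 10), a 20 kb assignment and the TAMo list shortened to the vehicle list's length, which left 38 TAMo intervals against 36 in vehicle. By gene, Cd8a had 14 intervals in TAMo and 11 in vehicle with the 20 kb assignment, in place of 23 and 18, and Zbtb7b had 6 in TAMo with the shortened list, in place of 10. Shared regions were 30 with the stricter overlap rule (50% of the shorter interval), 30 at −log10 q of at least 5 and 25 with the shortened list. Setting the median of all shared regions (0.28) to 0 moved the promoter ratios to −0.33 for Cd8a, 0.18 for Cd8b1 and −0.12 for Zbtb7b, and left 1 region at least 2-fold higher in TAMo, the one 3843 bp upstream of Cd4, in place of 2. The direction at the Zbtb7b promoter thus depends on the scaling. With the authors' deposited fold in place of coverage, the median over member regions was 0.088 in place of −0.23, 1 region was at least 2-fold higher and 0 were at least 2-fold lower in place of 3, because that fold divides by a local background that also differed between the libraries. Between Cd8b1 and Cd8a, 5 of the 10 shared regions were below 0 by that fold; both other scalings only lower every ratio by a constant and so could not test this. Promoter ratios were the same with a 2.5 kb window, and requiring summits within 100 bp of each other changed no region. Depth limits weak peaks most: where a library had 26 to 37 reads the intervals spanned more than 1 on the log2 scale.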

Other observations

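Regions next to the members but nearer to another start site also differed. In the muscle gene Smyd1, which runs away from Cd8b1 on the opposite strand, a peak in the second exon of one transcript, 10655 bp upstream of Cd8b1 (chromosome 6, 71311931 to 71312318) had 282 reads in TAMo and 73 reads in vehicle (log2 ratio 1.65, 1.27 to 2.04). In the first intron of another transcript, peaks at 15082 bp (56 reads in TAMo and 107 reads in vehicle; −1.23, −1.73 to −0.75) and 6258 bp (124 reads in TAMo and 200 reads in vehicle; −0.99, −1.33 to −0.66) had the opposite direction. Past the end of Cd4, the region that holds the Gpr162 promoter (124863433 to 124864288) had 522 reads in TAMo and 215 reads in vehicle (0.98, 0.75 to 1.22), with its highest summits 390 bp apart. These regions were picked after their values were seen.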
